A study of Mus musculus with 8 samples.

Results

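The genes described here carry sugars, monocarboxylates, fatty acids and vitamins across membranes. They were chosen by symbol from the array annotation: every gene whose single symbol starts with Slc2a, Slc5a, Slc16a, Slc19a, Slc23a, Slc27a, Slc46a or Slc52a followed by a digit, plus Bsg and Emb, whose proteins escort monocarboxylate transporters. This gave 56 of the 18193 genes measured: 12 by the prefix Slc2a, 13 Slc5a, 13 Slc16a, 3 Slc19a, 4 Slc23a, 5 Slc27a, 3 Slc46a, 1 Slc52a, and Bsg and Emb. The symbols hold to the families with 1 exception, Slc2a4rg-ps, which is named as a pseudogene of a regulator of Slc2a4 and is no transporter; it is kept because the choice by symbol includes it. Some members carry other cargo, among them Slc5a5 (iodide), Slc5a7 (choline) and Slc16a10 (aromatic amino acids).

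The values come from expression arrays of choroid plexus tissue, taken above the hindbrain from the fourth ventricle of mice at embryonic day 13. There were 4 arrays labelled Otx2 k.o., from a strain deficient in the homeodomain transcription factor Otx2, and 4 labelled wildtype, from the same litters, on a mixed background, untreated and of undetermined sex. Each array is a biological replicate per the labels, and the labels do not say whether embryos were pooled, or how and when the gene was deleted. The comparison asks how loss of Otx2 alters this tissue.

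The choroid plexus is a folded sheet of epithelium over a vascular stroma that makes cerebrospinal fluid. Because its capillaries are leaky, its epithelium is the barrier between blood and fluid, and nutrients that the brain cannot make, such as ascorbate, folate, biotin and pantothenate, enter the fluid through carriers in its apical and basolateral membranes. Glucose crosses by facilitative carriers of the Slc2a family, lactate and ketone bodies by proton-coupled carriers of the Slc16a family, and inositol and several vitamins by sodium-coupled carriers of the Slc5a and Slc23a families.

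Levels are log2 units after RMA, the authors' normalization, in which 1 unit is a factor of 2. Over all values the lower quartile was 4.33 and the median 5.88, and array medians lay between 5.85 and 5.90. Without detection calls a low level may be background, and levels of different genes cannot be ranked because probes differ in brightness. Otx2 itself read 12.38, 12.46, 12.44 and 12.48 in knockout-labelled replicates 1 to 4 and 12.00, 12.05, 11.97 and 11.85 in wildtype replicates 1 to 4. It did not fall, but was higher by 0.47 (SE 0.06, limma adjusted p = 0.000648). Where its probes lie relative to the deleted part is not known here, so directions rest on the labels and the arrays are called knockout-labelled.

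Marker lists of cell types moved in part. The list means of epithelium, stroma and macrophages stood apart between the groups, and the other list means overlapped. Markers were called in the limma fit of all genes, of which 19.6% passed, 11.7% lower and 7.84% higher. Of 10 measured markers of the choroid epithelium 9 fell, and the list mean was 10.20 to 10.50 in the knockout-labelled arrays against 11.28 to 11.46 in the wildtype arrays. The marker that did not pass was Ttr, at 14.17 ± 0.03 against 14.21 ± 0.04 (-0.05, limma adjusted p = 0.647). All 12 stroma markers rose (list mean 10.78 to 11.14 against 10.20 to 10.36), and 8 of 12 macrophage markers rose with 0 falling, also at an unadjusted limma p under 0.05 (8.89 to 9.39 against 8.35 to 8.59). With probe sets of shared transcripts left out, 7 macrophage markers rose and 1 fell. Endothelial markers overlapped between the groups as a list mean (8.96 to 9.17 against 9.10 to 9.31), with 3 of 12 lower and 1 higher, Cdh5, which passed in 1 of the 8 fits that left out an array, that lacking knockout-labelled replicate 2. Neuron markers ranged more within groups than between them, from 7.70 to 9.21 against 7.35 to 8.94, and 0 of 12 passed in the limma fit (1 at an unadjusted p under 0.05, and 1 rose without wildtype replicate 1). Of 9 erythroid markers 1 rose and 1 fell, and of 12 neural progenitor markers 3 rose, counts that became 2 falls and 5 rises without wildtype replicate 1; without wildtype replicate 2, 3 or 4 the erythroid rise was lost. The part of these cell types in the results below was not tested, and in bulk tissue fewer cells of a type and less RNA per cell cannot be told apart. The signal of the 3′ control probe set minus the 5′ one, which rises as RNA degrades, was 0.22 to 0.39 for beta-actin in the knockout-labelled and 0.21 to 0.29 in the wildtype arrays. For Gapdh it was 0.02 to 0.18 (mean 0.08) against 0.00 to 0.07 (mean 0.03), and the part of RNA quality in the results below was not tested.

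**Figure D1:**
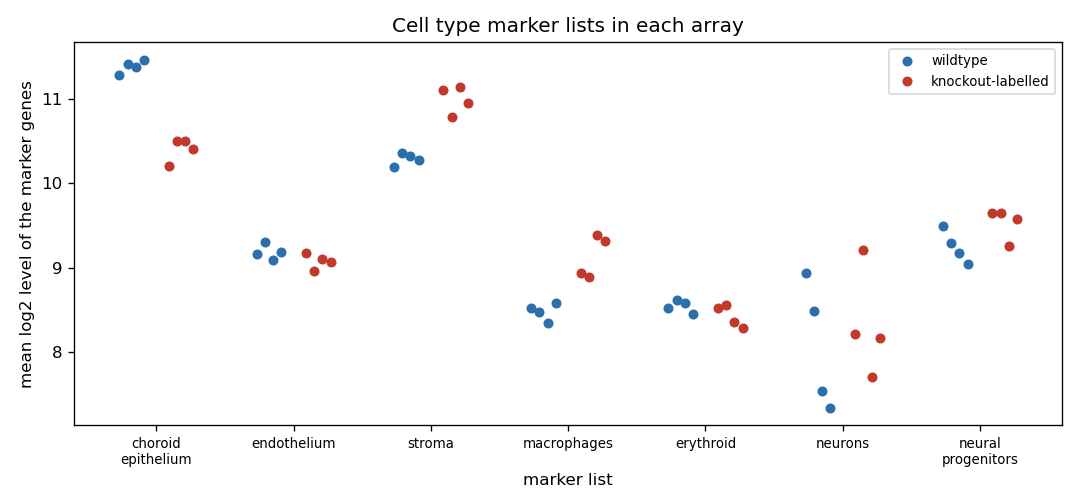
Mean log2 level of each marker list (horizontal axis) in each array (points; 4 per group, in replicate order from left to right). Epithelial markers lie lower in every knockout-labelled array, stroma and macrophage markers higher, and endothelial, erythroid, neuron and progenitor lists overlap between the groups.

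Of the 56 genes, 18 passed the test between the groups (limma, Benjamini-Hochberg adjusted p under 0.05 over all 18193 genes), 13 lower and 5 higher in the knockout-labelled arrays. Over all genes 19.6% passed, 11.7% lower and 7.84% higher. The members' shares were 32.1% called, 23.2% lower and 8.93% higher. The number of all genes that rose depended on the arrays: 1426 rose with all 8, but 905 without wildtype replicate 3, where 4 members rose, and 1012 without knockout-labelled replicate 4, where 6 members rose. The median log2 fold change of the 56 genes was -0.06 against 0.00 for all genes, and ran from -2.03 (Emb) to 0.70 (Slc2a3, which did not pass). Of the 18, 6 changed by at least 2-fold, and all 6 fell: Emb, Slc16a9, Slc23a2, Slc5a6, Slc16a10 and Slc2a12. Among all genes 1.8% passed with such a change. In 20 members the groups of arrays did not overlap, with the knockout-labelled arrays below in 13 and above in 7, which was so for 24.3% of all genes (14.4% below and 9.98% above).

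Calls were more frequent among brighter genes. Of the 20 members whose mean over all 8 arrays was above the median gene level of 7.29, 10 were lower and 2 higher, where 28.3% of all genes above that level were called. Of the 36 members at or below it, 3 were lower and 3 higher, against 10.8% of all such genes. The lower quartile of all values stood above 8 members, all of which did not pass: Slc2a2, Slc5a1, Slc5a4b, Slc5a8, Slc5a12, Slc23a3, Slc27a5 and Slc46a2. Without the pseudogene, 4 of 55 genes were higher and 13 lower.

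**Figure D2:**
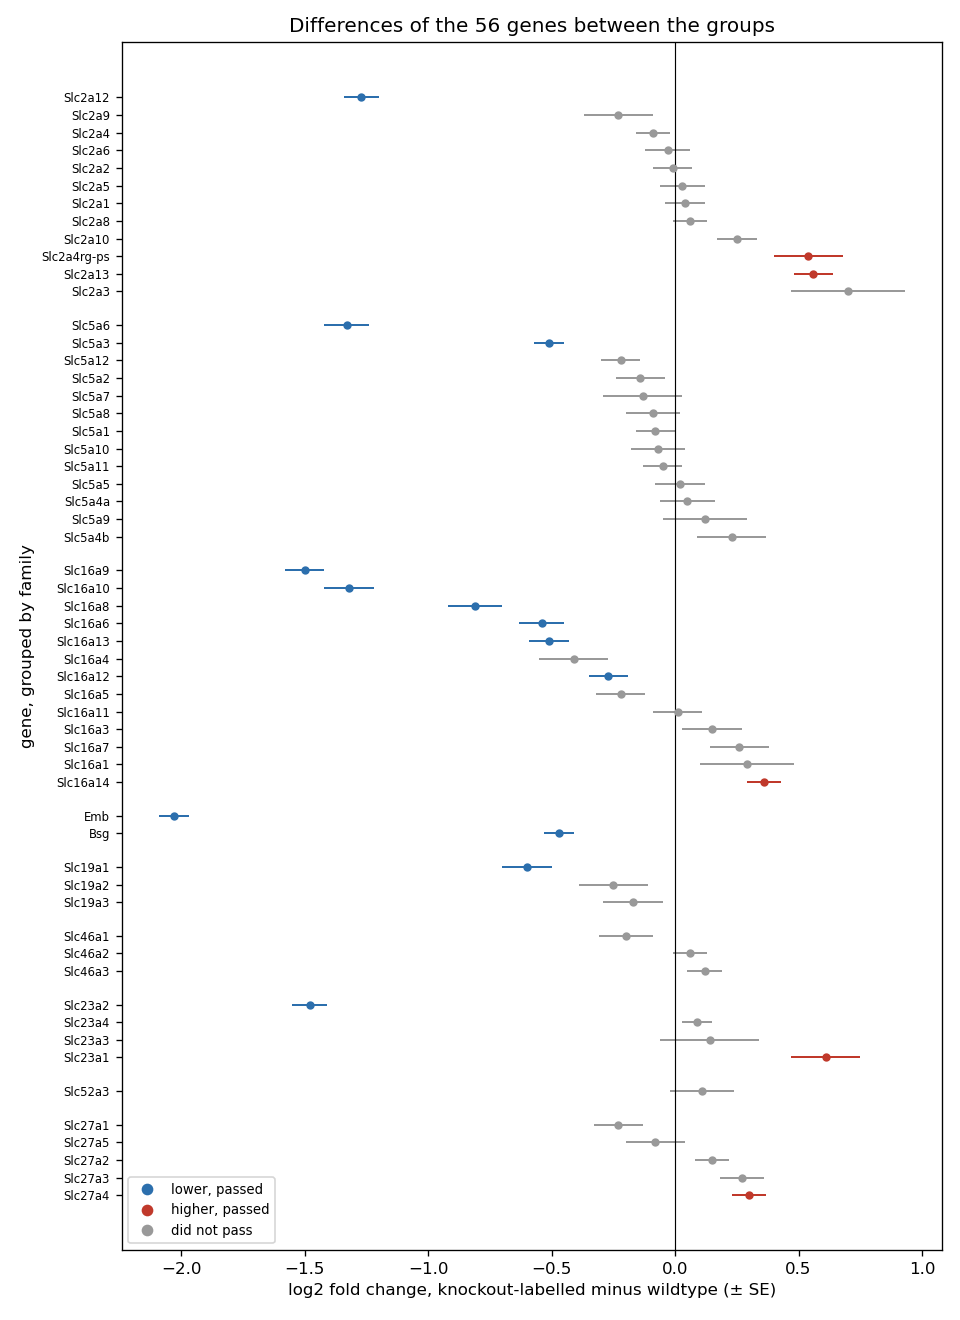
Log2 fold change of each of the 56 genes (knockout-labelled minus wildtype, horizontal axis, bars are SE of the limma fit), grouped by family. Emb, Slc16a9, Slc23a2, Slc5a6, Slc16a10 and Slc2a12 form the far left, between -2.03 and -1.27, and no member lies beyond 0.70 on the right.

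The promoter sequences of 4 of these 6 genes are shown as those of the members that fell the most, with a motif of the class of factors that Otx2 belongs to marked in them. Each is the stretch of 250 bases just before the start of the gene, read 5′ to 3′ from RefSeq's GRCm38.p6 table, which held 42 of the 56 genes; Slc23a2 and Slc5a6 have 2 starts each and are not printed. Emb lies at chr13:117220323-117220572 on the + strand, Slc16a9 at chr10:70245026-70245275 on the + strand, Slc16a10 at chr10:40142255-40142504 on the - strand and Slc2a12 at chr10:22644761-22645010 on the + strand. Capitals mark TAATC or its other strand GATTA, a core that paired-type factors of the bicoid class, to which Otx2 belongs, are known to bind, extended to TAATCC or GGATTA where those letters stand; each TAATCC holds a TAATC.
Emb: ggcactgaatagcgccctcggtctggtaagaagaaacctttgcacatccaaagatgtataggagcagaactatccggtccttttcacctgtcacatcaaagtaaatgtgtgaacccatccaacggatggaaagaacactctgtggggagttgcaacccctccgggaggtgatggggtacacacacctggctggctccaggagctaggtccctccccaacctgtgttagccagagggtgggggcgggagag
Slc16a9: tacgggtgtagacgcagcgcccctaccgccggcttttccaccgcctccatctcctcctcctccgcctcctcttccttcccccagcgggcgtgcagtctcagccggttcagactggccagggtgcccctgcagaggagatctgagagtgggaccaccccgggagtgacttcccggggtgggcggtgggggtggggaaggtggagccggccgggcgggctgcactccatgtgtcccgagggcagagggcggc
Slc16a10: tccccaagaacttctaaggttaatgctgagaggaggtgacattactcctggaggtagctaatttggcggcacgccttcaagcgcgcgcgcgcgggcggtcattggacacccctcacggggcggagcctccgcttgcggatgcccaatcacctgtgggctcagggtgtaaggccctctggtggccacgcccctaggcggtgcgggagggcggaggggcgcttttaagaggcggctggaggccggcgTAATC
Slc2a12: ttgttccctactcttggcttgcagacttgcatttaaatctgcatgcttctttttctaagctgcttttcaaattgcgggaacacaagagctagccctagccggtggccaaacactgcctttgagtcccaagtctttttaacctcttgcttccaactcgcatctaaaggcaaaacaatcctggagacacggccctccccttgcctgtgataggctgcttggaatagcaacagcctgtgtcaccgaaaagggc
To show a stretch with the longer motif, the following one is that of Slc2a2, the glucose carrier of liver and pancreas, chosen from the 4 members that hold it. Its level (2.93 ± 0.09 against 2.94 ± 0.12) lay below the lower quartile of all values and may be background. The stretch lies at chr3:28697653-28697902 on the + strand.
Slc2a2: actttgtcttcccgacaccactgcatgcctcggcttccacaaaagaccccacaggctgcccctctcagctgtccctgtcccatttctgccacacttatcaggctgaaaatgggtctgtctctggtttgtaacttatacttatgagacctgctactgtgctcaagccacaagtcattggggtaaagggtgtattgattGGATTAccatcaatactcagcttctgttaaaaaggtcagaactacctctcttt
In the full windows of 300 bases, which add 50 bases after the start, TAATCC or GGATTA stood in 0 of the 10 genes that fell and have a window, in 0 of 3 that rose and in 4 of 29 that did not pass (Slc2a2, Slc5a4b, Slc23a4 and Slc46a3), against 8.14% of all 27025 genes with a window. The shorter TAATC or GATTA, looked at after the longer one, stood in 1 of the 10 that fell, Slc16a10, in 0 of 3 that rose and in 7 of 29 that did not pass (24.1%), against 24.6% of all genes. A match describes letters in this window, and its absence says nothing of the factor elsewhere.

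The Slc16a family held the most changes. Of its 13 measured genes 6 fell, 1 rose and 6 did not pass, with a median log2 fold change of -0.27. Slc16a9, a carrier of carnitine as known in humans, read 9.66, 9.77, 9.67 and 9.74 in the wildtype arrays and 8.06, 8.32, 8.34 and 8.13 in the knockout-labelled arrays. The groups lay more than a unit apart, a 2.82-fold lower level (log2 fold change -1.50, SE 0.08, adjusted p = 5.01e-06). Its other 2 probe sets gave -1.53 and -1.57.

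Slc16a10, which lets aromatic amino acids and thyroid hormones pass, read 11.25, 11.27, 11.18 and 11.31 in wildtype and 9.67, 10.15, 9.95 and 9.98 in knockout-labelled replicates 1 to 4. Knockout-labelled replicate 1 was the lowest, and all 4 lay below every wildtype array (-1.32, SE 0.10, adjusted p = 2.52e-05). The 3 further probe sets of Slc16a10 were lower too, by -1.52, -0.53 and -0.30, the last pair at levels below the median of all values. Slc16a8 encodes a lactate carrier (MCT3) known from the retinal pigment epithelium and the choroid plexus. It read 7.02, 7.05, 7.26 and 7.11 in wildtype and 6.52, 6.45, 6.15 and 6.09 in knockout-labelled arrays, without overlap (-0.81, SE 0.11, adjusted p = 0.000653). With the mean of its probe sets the difference was -0.46, since the second one is dim (3.24) and gave -0.12.

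Smaller falls were measured for 3 further genes of the family. Slc16a6, a ketone body carrier as known in zebrafish, went from 8.83 ± 0.17 to 8.28 ± 0.09 (SD, n = 4; -0.54, adjusted p = 0.00265), and Slc16a13 from 7.38 ± 0.16 to 6.87 ± 0.04 (-0.51, adjusted p = 0.0019). In both, the groups did not overlap. Slc16a12, a creatine carrier as known in humans, went from 9.36 ± 0.11 to 9.09 ± 0.12 (-0.27, adjusted p = 0.0455). Its highest knockout-labelled array (9.21) lay just under its lowest wildtype array (9.22). Slc16a12 no longer passed when knockout-labelled array 1, 2 or 4 or wildtype array 2, 3 or 4 was left out, with a highest adjusted p of 0.123.

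The gene of the family that rose was Slc16a14, from 5.55 ± 0.07 to 5.91 ± 0.11 (0.36, SE 0.07, adjusted p = 0.00636), with a further probe set at 0.47. Over all 8 arrays these probe sets averaged 5.73 and 5.41, below the median of all values. Slc16a1 encodes MCT1, the lactate carrier of many tissues and of brain endothelium. It read 9.08, 8.18, 8.51 and 8.98 in knockout-labelled and 8.54, 8.24, 8.22 and 8.57 in wildtype arrays. Replicates 1 and 4 were high and 2 low in the knockout-labelled group, so the groups overlapped and the gene did not pass (0.29, 95% interval -0.13 to 0.72, adjusted p = 0.344). Slc16a4 read 7.14 ± 0.25 against 7.55 ± 0.20 (-0.41, adjusted p = 0.0626). Slc16a4 passed with the replicate number as a block (adjusted p = 0.0148), without knockout-labelled replicate 3 (0.0328), without wildtype replicate 1 (0.0424), among genes above the median level (0.0323), with the trended robust prior (0.0421) and with array weights (0.0419). Its second probe set gave 0.40, so that the mean of both gave 0.00 (adjusted p = 0.985). The other 4 genes, Slc16a3, Slc16a5, Slc16a7 and Slc16a11, had log2 fold changes from -0.22 to 0.26 and adjusted p of 0.169 or more.

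The genes of both escort proteins among the 56 members were lower. Nptn, counted in the list of monocarboxylate use below and not a member, read 10.86 ± 0.05 in both groups (0.01, adjusted p = 0.968). Embigin (Emb), a membrane glycoprotein that accompanies MCT2, the product of Slc16a7, had the largest difference of all 56 genes. Its arrays read 9.46, 9.54, 9.58 and 9.68 in wildtype and 7.51, 7.57, 7.55 and 7.51 in knockout-labelled replicates 1 to 4. The arrays of each group lay close together (SD 0.09 in wildtype and 0.03 in knockout-labelled arrays), and the distance between the groups was 4.08-fold (-2.03, SE 0.06, adjusted p = 2.79e-07). A second probe set gave -1.87 and the last, dim one (3.60) gave -0.02, so that the mean of the 3 gave -1.31. Basigin (Bsg), the escort of MCT1, MCT3 and MCT4, read 12.66, 12.71, 12.66 and 12.71 in wildtype and 12.17, 12.29, 12.20 and 12.19 in knockout-labelled arrays. Its fall was 1.39-fold, and the groups did not overlap (-0.47, SE 0.06, adjusted p = 0.000324). The partner genes of the carriers thus gave -0.47 (Bsg) beside 0.29 for Slc16a1, -0.81 for Slc16a8 and 0.15 for Slc16a3, and -2.03 (Emb) beside 0.26 for Slc16a7. Over all arrays Slc16a3 averaged 4.79 and Slc16a7 5.82, below the median of all values, so the levels of both may be background.

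Genes of the use of monocarboxylates and ketone bodies were read from a list of 18, of which 15 were measured. Of these 5 fell and 1 rose, with a median log2 fold change of -0.13. The share called was 40%, against 19.6% of all genes. All 15 lay above the median gene level, where 28.3% of all genes were called. The ketone body dehydrogenase Bdh1 went from 10.16 ± 0.06 to 9.35 ± 0.14 (-0.81, adjusted p = 0.000122). Pdk4 and Pdk3, kinases that hold back pyruvate dehydrogenase, changed by -0.57 and -0.42, and Pdp1, the phosphatase that releases it, by 0.56. The kinases Pdk1 (-0.37, adjusted p = 0.121) and Pdk2 (-0.11, adjusted p = 0.341) did not pass. The mitochondrial pyruvate carrier subunit Mpc1 changed by -0.28 and the lactate dehydrogenase subunit Ldhb by -0.26. Ldhb no longer passed when knockout-labelled array 1 or 4 or wildtype array 2, 3 or 4 was left out (highest adjusted p 0.0629).

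**Figure D3:**
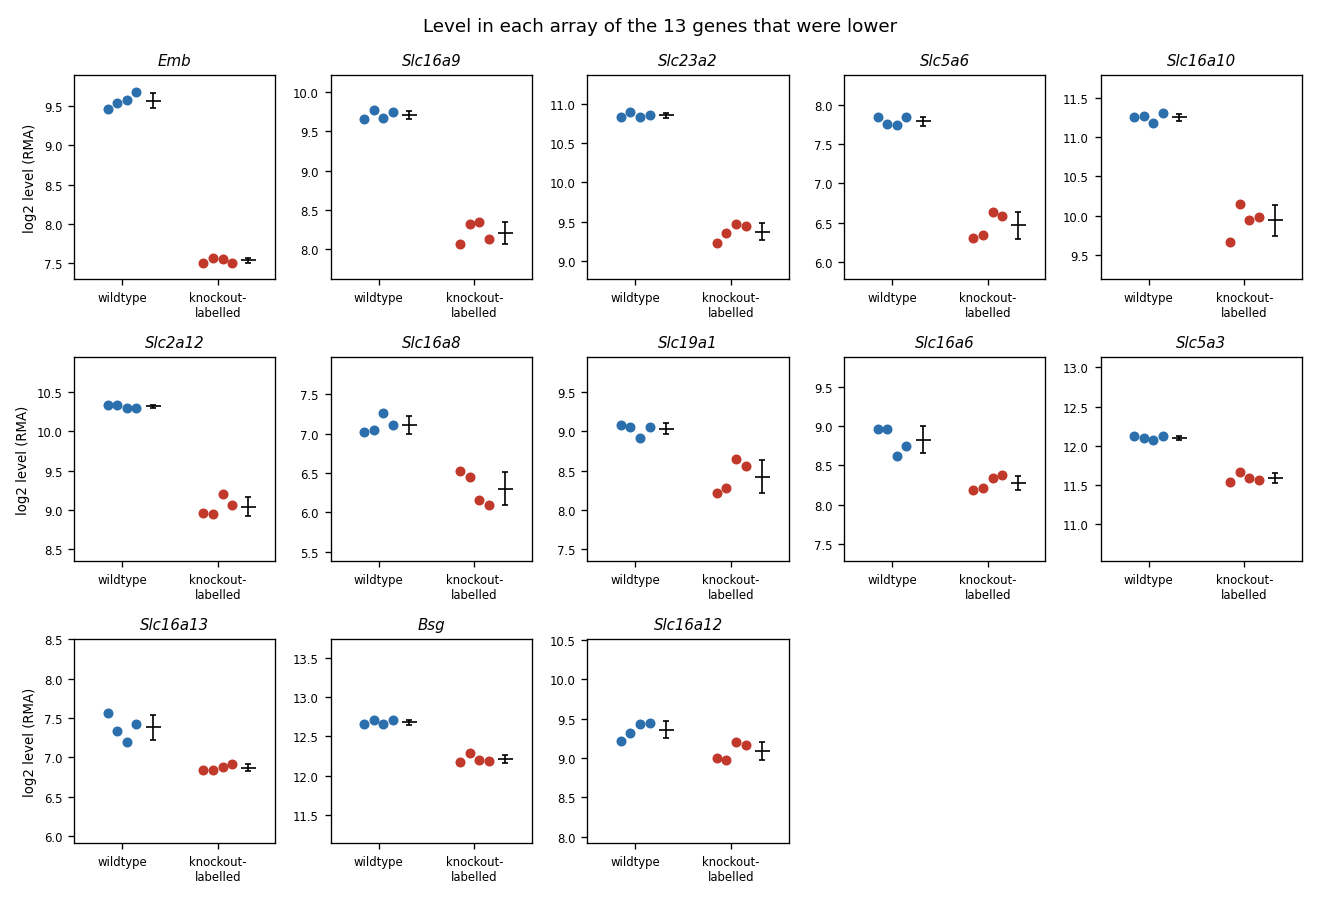
Log2 level of the 13 genes that were lower, in each wildtype and knockout-labelled array (points, replicates 1 to 4 from left to right in each group; horizontal marks with bars are mean ± SD, n = 4). Every panel spans the same number of log2 units, and in all 13 the knockout-labelled arrays lie under the wildtype arrays, narrowly for Slc16a12.

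Among the hexose carriers of the Slc2a family, Slc2a12 fell and Slc2a1 stayed within the spread of the arrays. Slc2a12 encodes GLUT12, which carries glucose and has been described as an exit path for ascorbate in the mouse choroid plexus. It read 10.34, 10.34, 10.30 and 10.29 in wildtype and 8.96, 8.95, 9.20 and 9.06 in knockout-labelled replicates 1 to 4. The wildtype arrays lay close together, and the level was 2.42-fold lower in the knockout-labelled group (-1.27, SE 0.07, adjusted p = 6.38e-06), with -1.27 for its second probe set as well.

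Slc2a1 encodes GLUT1, the main glucose carrier of barrier epithelia and endothelia. It read 11.13, 10.91, 11.03 and 11.11 in knockout-labelled and 10.85, 11.10, 10.96 and 11.09 in wildtype arrays. The groups overlapped throughout, with a log2 fold change of 0.04 and a 95% interval of -0.14 to 0.22 (adjusted p = 0.779), and its other probe sets gave 0.06 and 0.07. Slc2a13, the proton-coupled carrier of myo-inositol, rose from 8.11 ± 0.09 to 8.66 ± 0.14 (0.56, SE 0.08, adjusted p = 0.00132), and the pseudogene Slc2a4rg-ps from 5.03 ± 0.10 to 5.57 ± 0.32 (0.54, SE 0.14, adjusted p = 0.0258). Slc2a4rg-ps averaged 5.30 over all 8 arrays, below the median of all values. Its call was lost with the replicate number as a block (adjusted p = 0.0517) and without knockout-labelled replicate 3 (0.0651) or wildtype replicate 3 (0.071) or 4 (0.0736).

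Slc2a3, the glucose carrier of neurons, had the largest positive value but did not pass, and is described here because of that value. It read 10.42, 10.43, 9.47 and 10.45 in knockout-labelled and 9.49, 9.26, 9.31 and 9.91 in wildtype arrays. Knockout-labelled replicate 3 sat among the wildtype arrays, nearly a unit under the rest of its group (0.70, SE 0.23, adjusted p = 0.0626). Without it the difference was 0.94 (adjusted p = 0.00292), and leaving out wildtype replicate 4 gave 0.84 (0.0443). Slc2a3 also passed among genes above the median level (0.0338) and when the replicate number was blocked on (0.0271), and in the other alternatives it did not. Its further probe sets gave 0.66 at a mean level of 7.70 and 0.01 and -0.02 at dim levels of 4.00 and 3.31. With probe sets of shared transcripts left out the difference was 0.01 (adjusted p = 0.968), and with the mean of the 4 it was 0.34 (0.12). The mean of the neuron markers was lowest in the same knockout-labelled replicate, at 7.70 against 8.175 to 9.21 in the others, but in the wildtype group it was lowest in replicate 4, at 7.35, where Slc2a3 was highest; the part of neurons in this value was not tested.

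Of the other Slc2a genes, Slc2a10 came close to the threshold (0.25, adjusted p = 0.0521), with knockout-labelled arrays all above the wildtype ones. It passed without knockout-labelled replicate 4 (adjusted p = 0.0173) and with the mean of its probe sets (0.00124), the dimmer of which gave 0.58. Slc2a10 also passed with probe sets of shared transcripts left out, where that dimmer probe set stands for it. Slc2a2, Slc2a4, Slc2a5, Slc2a6, Slc2a8 and Slc2a9 had log2 fold changes from -0.23 to 0.06 and did not pass. In the list of 20 genes of hexose use, 14 were measured, of which 2 fell and 2 rose, with a median of -0.06. The share called was 28.6%, against 19.6% of all genes. Of the 14, 11 lay above the median gene level, where 28.3% of all genes were called. The glycogen branching enzyme Gbe1 changed by -0.84 (adjusted p = 0.00014) and hexokinase Hk1 by -0.50, while Txnip, a brake on glucose uptake, changed by 0.51 and hexokinase Hk3 by 0.33.

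Of the 13 sodium-coupled carriers of the Slc5a family 2 fell and 0 rose in the limma fit, where 3 were lower and 0 higher at an unadjusted p under 0.05. Slc5a6, the carrier of biotin and pantothenate, read 7.84, 7.76, 7.74 and 7.85 in wildtype and 6.31, 6.34, 6.64 and 6.59 in knockout-labelled replicates 1 to 4. Its level was 2.51-fold lower with no overlap (-1.33, SE 0.09, adjusted p = 1.66e-05), and it has 1 probe set. Slc5a3, the sodium-coupled carrier of myo-inositol, read 12.12, 12.10, 12.08 and 12.12 in wildtype and 11.54, 11.67, 11.59 and 11.57 in knockout-labelled arrays. The fall was modest but wide of the spread between arrays (-0.51, SE 0.06, adjusted p = 0.000219), and its further probe sets gave -0.80 and -0.50. The 2 carriers of myo-inositol that passed thus went in opposite directions, Slc5a3 lower and Slc2a13 higher, while the other one measured, Slc5a11, read 5.85 ± 0.09 against 5.90 ± 0.12.

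The other 11 Slc5a genes had log2 fold changes from -0.22 (Slc5a12) to 0.23 (Slc5a4b), and all 11 overlapped between the groups. They include the glucose carriers Slc5a1 and Slc5a2, the monocarboxylate carriers Slc5a8 and Slc5a12, the choline carrier Slc5a7 and the iodide carrier Slc5a5. Only Slc5a3 of this family lay above the median gene level. Slc5a5 (0.02) had a second probe set that gave 0.51, and was called higher only with the mean of its probe sets (0.26, adjusted p = 0.0372). Slc5a12 passed only without knockout-labelled replicate 2 (adjusted p = 0.0433). Of 6 genes of inositol metabolism, 4 were measured and 0 passed in the limma fit (1 at an unadjusted p under 0.05). The smallest p in that fit was that of the inositol monophosphatase Impa1 (-0.19, adjusted p = 0.106). Of the 4 genes, 1 was called lower without knockout-labelled replicate 2 and 1 with array weights.

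The ascorbate carriers moved apart. Slc23a2 encodes SVCT2, the sodium-coupled carrier through which the choroid plexus takes up ascorbate. It read 10.83, 10.90, 10.83 and 10.86 in wildtype and 9.23, 9.35, 9.47 and 9.44 in knockout-labelled replicates 1 to 4. The groups stood over a unit apart, 2.79-fold (-1.48, SE 0.07, adjusted p = 3.19e-06). Its dim second probe set (5.04) gave -0.31 and did not pass, and the mean of both gave -0.89. Slc23a1, the ascorbate carrier known from kidney and intestine, read 5.65, 6.00, 5.65 and 5.57 in knockout-labelled and 4.86, 5.30, 5.34 and 4.91 in wildtype arrays. It was higher without overlap (0.61, SE 0.14, adjusted p = 0.0116), at mean levels below the median of all values in both groups, and its second, dimmer probe set gave 0.08, so that the mean of both gave 0.34. Slc23a3 and Slc23a4, members by symbol and not counted here as ascorbate carriers, changed by 0.14 and 0.09 and did not pass.

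Folate enters the fluid through the folate receptor Folr1, the proton-coupled carrier Slc46a1 and the reduced folate carrier Slc19a1. Slc19a1 read 9.08, 9.05, 8.92 and 9.06 in wildtype and 8.21, 8.28, 8.65 and 8.56 in knockout-labelled replicates 1 to 4. Knockout-labelled replicates 1 and 2 were lower than 3 and 4, and all 4 lay under the wildtype arrays (-0.60, SE 0.10, adjusted p = 0.00267). A further bright probe set of Slc19a1 gave -0.67 and a dim one 0.01. Slc46a1 read 6.82, 6.86, 7.17 and 7.26 against 7.18, 7.31, 7.16 and 7.24 in wildtype. Its replicates 1 and 2 were again the low ones, but 3 and 4 lay among the wildtype arrays, and it did not pass (-0.20, 95% interval -0.43 to 0.04, adjusted p = 0.246). Slc46a2 and Slc46a3 changed by 0.06 and 0.12 and did not pass.

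In the list of 21 genes of folate use, 19 were measured, of which 1 fell and 3 rose, with a median of 0.09. The share called, 21.1%, was near the 19.6% of all genes. Without knockout-labelled replicate 3, 2 fell, as also with the replicate block, the trended robust prior and genes above the median level. The number that rose was 2 to 4 in the fits without 1 array, and 1 with probe sets of shared transcripts left out. Folr1, which is also among the epithelial markers, went from 12.25 ± 0.05 to 11.13 ± 0.18 (-1.12, adjusted p = 3.8e-05). The enzymes that rose were Mthfd1l (0.70, adjusted p = 0.00113) and Shmt2 (0.32) of mitochondrial folate metabolism and the purine synthesis enzyme Atic (0.31). Among the 8 fits that left out an array, Shmt2 passed only in those lacking knockout-labelled array 2 or wildtype array 1, and it was not called with arrays centred on their medians (highest adjusted p 0.183 over all alternatives). Averaging probe sets took Atic to an adjusted p of 0.0763.

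Thiamine and riboflavin carriers did not pass. The thiamine carrier Slc19a2 read 8.94, 9.20, 9.54 and 9.56 in knockout-labelled and 9.36, 9.73, 9.51 and 9.61 in wildtype arrays, with overlap (-0.25, 95% interval -0.57 to 0.07, adjusted p = 0.289). It was called lower only with the mean of its probe sets (-0.27, adjusted p = 0.0203). Slc19a3, the other thiamine carrier, changed by -0.17, and Slc52a3, a riboflavin carrier, by 0.11 (95% interval -0.17 to 0.39). Of 22 genes that use or bind other vitamins 19 were measured, of which 2 fell and 2 rose, with a median of 0.04. The share called, 21.1%, was near the 19.6% of all genes. Gsto1, which reduces oxidised ascorbate, changed by 0.44 (adjusted p = 0.00715). The receptor for vitamin B12 uptake Cd320 (-0.29), the coenzyme A synthase Coasy (-0.26) and pyridoxal kinase Pdxk (0.37) were less stable. Their calls were lost without wildtype replicate 3 or 4 and with the mean of probe sets. That of Cd320 was also lost without knockout-labelled replicate 1. For Coasy this was so without any one of wildtype replicates 1 and 2 and knockout-labelled replicates 1 and 2. The call of Pdxk was also lost without wildtype replicate 1, without wildtype replicate 2, without knockout-labelled replicate 4 and with the replicate block.

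The fatty acid carriers of the Slc27a family, which also join fatty acids to coenzyme A, showed small differences. Of 5 genes 1 rose, Slc27a4, from 7.76, 7.65, 7.48 and 7.66 in wildtype to 7.85, 7.91, 8.03 and 7.96 in knockout-labelled replicates 1 to 4. The groups were adjacent without overlap (0.30, SE 0.07, adjusted p = 0.0185). Blocking on the replicate number gave Slc27a4 an adjusted p of 0.0511, and leaving out knockout-labelled replicate 3 gave 0.0502. Slc27a3 was also higher in every knockout-labelled array but did not pass (0.27, adjusted p = 0.0659). Slc27a1, the brightest probe set of the family, read 7.73 ± 0.17 against 7.96 ± 0.12 (-0.23, adjusted p = 0.148) and passed only without knockout-labelled replicate 3 (0.0391). Slc27a2 and Slc27a5 changed by 0.15 and -0.08.

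Of 25 genes of fatty acid use 23 were measured, of which 7 fell and 2 rose, with a median of -0.16. The share called was 39.1%, against 19.6% of all genes. Of the 23, 15 lay above the median gene level, where 28.3% of all genes were called. The acyl-CoA synthetase Acsl4 went from 7.88 ± 0.10 to 6.91 ± 0.08 (-0.97, adjusted p = 2.7e-05). The acyl-CoA dehydrogenases Acadm and Acadl changed by -0.61 and -0.35, while Acadvl did not pass (-0.18, adjusted p = 0.0956). The subunits of the mitochondrial trifunctional protein Hadhb and Hadha changed by -0.34 and -0.32. Of the carnitine palmitoyltransferase genes Cpt1a changed by -0.37, while Cpt1c (-0.20) and Cpt2 (-0.16) did not pass. Slc25a20 (0.08) did not pass either. Acsl6 changed by -0.43 and passed in only 2 of the 8 fits that left out an array, those lacking knockout-labelled array 2 or wildtype array 3. Averaging probe sets took Hadhb to an adjusted p of 0.114, and Acsl6 was not called then either. The fatty acid binding protein Fabp5 was higher by 0.63, and Acsl3 by 0.20, where only 1 of those 8 fits kept the call, that lacking knockout-labelled array 3.

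**Figure D4:**
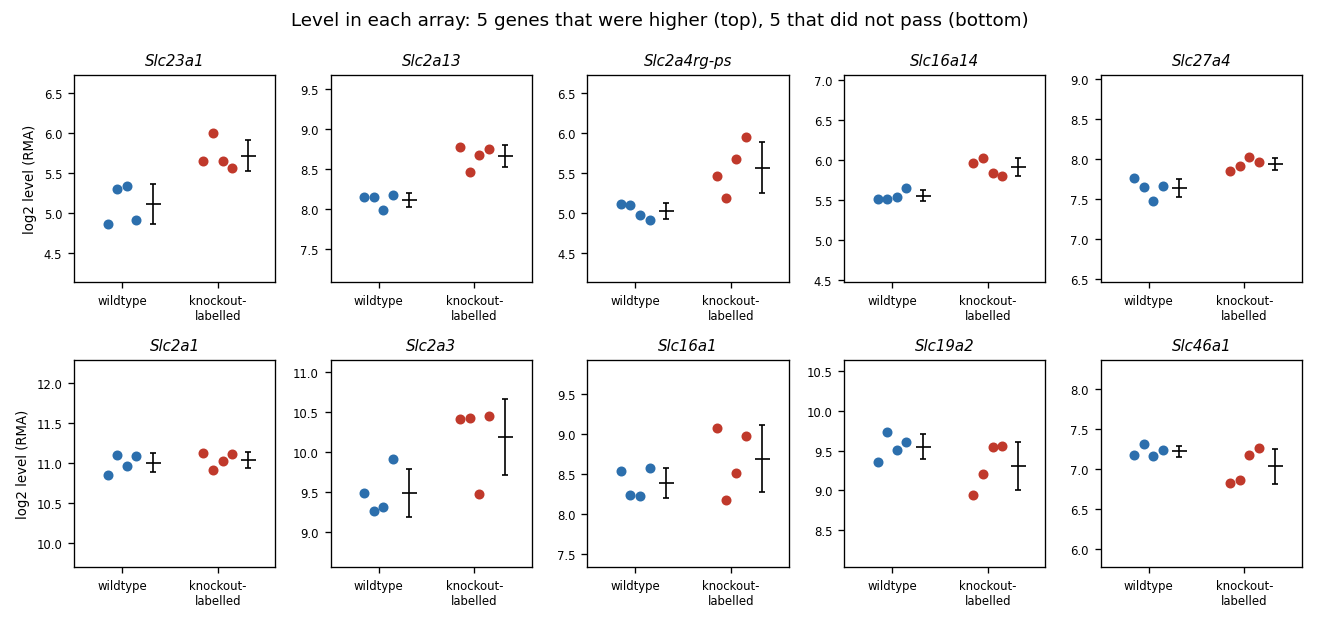
Log2 level in each array of the 5 genes that were higher (top row) and of 5 that did not pass (bottom row), drawn as points in replicate order with mean ± SD (n = 4). Slc2a1 overlaps throughout, and knockout-labelled replicate 3 of Slc2a3 (9.47) lies apart from the other 3 of its group.

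The 56 genes were covered by 96 probe sets, and 28 genes had several. Of the 10 called genes with several, a further probe set passed with the same sign in 7, and in 0 did one pass with the other sign. The 3 without a further call were Slc16a8, Slc23a1 and Slc23a2, whose further probe sets lay below the lower quartile of all values or, for Slc23a2, below the median. Among the 18 uncalled genes with several, 2 had a further probe set that passed, Slc2a10 and Slc5a5. Single arrays also took turns at the extremes: over the 56 genes knockout-labelled replicate 4 was the lowest of its group in 23 and replicate 2 the highest in 25, and wildtype replicate 1 was the lowest of its group in 23.

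**Figure D5:**
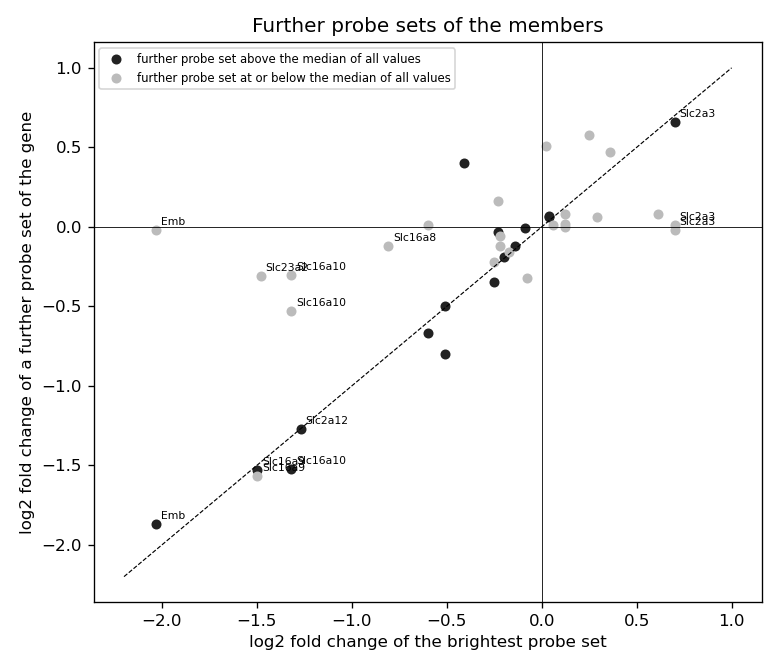
Log2 fold change of each further probe set (vertical axis) against that of the brightest probe set of the same gene (horizontal axis); the dashed line marks equal values, and genes beyond 0.65 in size are named. The further probe sets of Slc16a9 (-1.53 and -1.57) and Slc2a12 (-1.27) lie near the line, the dim one of Emb (-0.02) lies near 0, and the second ones of Slc2a10 (0.58) and Slc5a5 (0.51) lie above the line.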

How the data were processed

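RNA of 8 samples of choroid plexus was measured on 1 array each, 4 labelled Otx2 knockout and 4 wildtype. Each deposited value is a log2 level of a probe set. The submitters' processing notes name RMA, a method that corrects background, equalises array distributions and summarises probes; they name no software or version. No detection calls or sequencing depth apply, and the number of arrays limits the precision.

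Of 45101 probe sets 34945 had 1 gene in the platform annotation, and 0 symbols needed an update from the reference gene table. The brightest probe set over 8 arrays stood for each of 18193 genes. Groups were compared with limma 3.58.1 in R 4.3.3 (lmFit, eBayes, two-sided, genotype only, no filter, Benjamini-Hochberg over all genes, call under 0.05), a procedure tested on simulated data. Values are mean ± SD, n = 4. Promoters came from RefSeq (GRCm38.p6).

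Members and lists were chosen with earlier results of these data known. Every called member is named, with the brightest of each family, Bsg, Emb, Slc2a1, Slc16a1, Slc46a1 and the called genes of pathway lists; Slc2a3, Slc2a10, Slc16a4 and other uncalled members were named after their values were seen, as were called list genes beyond the 3 with the smallest p.

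Replicate numbers were treated as pairing arrays in a blocked alternative, since deviations from group means correlated at 0.131 to 0.232 across genes for same-numbered arrays, each above 0.1 (other pairs -0.296 to 0.294). No label says what a number marks. Alternatives were that block, leaving out each array, other probe set choices, a filter on dim genes, 2 normalizations, a trended robust prior, array weights and a threshold of 0.01.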

Additional observations from a re-analysis of the deposited data

Results flagged for a closer look

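Of 114 groups of 4 arrays examined (each member and Otx2 in each genotype), 7 had an extreme array separated from the nearest other by most of the range of its group. Chance flags about 1 in 20 groups. The widest separation was that of Slc2a3, where knockout-labelled replicate 3 read 9.47 and the next array 10.42. In the knockout-labelled group, replicate 1 of Slc27a3 read 6.84 with the next at 6.52. Replicate 2 of that group was high for Slc5a4b (4.25, next 3.67) and for Slc2a6 (5.30, next 5.02). In the wildtype group, replicate 4 was high for Slc16a14 (5.65, next 5.53) and for Slc2a2 (3.13, next 2.90), and replicate 3 was low for Slc2a13 (7.98, next 8.14). The calls of Slc16a14 and Slc2a13 held in all 8 fits without 1 array.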

How the results depend on the processing

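Of the 18 called members, 15 kept their call in every alternative at the threshold of 0.05 that could include them; the exceptions were Slc16a12, Slc27a4 and Slc2a4rg-ps. The fit of genes above the median level left out 6 called members (Slc5a6, Slc16a8, Slc16a13, Slc16a14, Slc23a1 and Slc2a4rg-ps), and that without suffixes of shared transcripts left out Bsg. No called member changed sign. Of the 38 others 31 passed in none of the alternatives that included them. The number higher was 5, and 4 to 6 in the fits without 1 array, 3 with genes above the median level and 2 at a threshold of 0.01. The number lower was 13, and 12 to 15 in the fits without 1 array. The median of the members was -0.06, and -0.08 to -0.01 in those fits, but -0.34 with genes above the median level, where 20 members are left. All genes called numbered 3557, and 2653 to 3934 in the fits without 1 array, 1950 at 0.01 and 3653 with the replicate block; those higher numbered 1426, and 905 to 1845 in the fits without 1 array. With the block, 4 members were higher, 3 of them shared with the unblocked fit, and 14 lower, 13 of them shared. Besides the changes given with Slc27a4, Slc2a4rg-ps, Slc2a3 and Slc16a4, the block changed no member's call. Of the list genes named, Pdxk turned from 0.37 to 0.00 (below 0 before rounding, adjusted p = 0.978) when probe sets with suffixes of shared transcripts were left out, which changes the probe set that stands for it.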
